A study of Mus musculus with 6 samples.

Results

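The microRNA mimic miR-294 was compared here with an siRNA against Mbd2, one of the mRNAs that miR-294 lowers. The cells were mouse embryonic stem cells (ESCs) that cannot make canonical microRNAs of their own. The comparison takes the 2 miR-294 and the 2 siMbd2 libraries, 4 of the 6 in the study, chosen by the transfected RNA named in their labels, and covers the 11428 of 13743 table entries whose mean over all 6 libraries reached 1 RPKM (RPKM counts the reads of a transcript relative to its length in kilobases and to all mapped reads of the library). Every library came from Dgcr8-/- ESCs of the mixed C57/129 strain, control cells included, so the controls lack canonical microRNAs too. Cells were transfected with DharmaFECT1 in multiwell plates, 16 h after plating. One group received miR-294 mimic (Dharmacon) at 50 nM and the other siRNA against Mbd2 (GenePharma) at 50 nM, and both were labelled 48 h. The third group, CTR, is given as a reference level only; what its wells received is not stated, and the table calls it mock. The sequence and number of the siRNAs, the number of ESC clones and whether replicates were separate cultures are not stated, so the p-values below measure only the spread between these libraries, which may be technical.

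Mbd2 binds methylated CpG sites and recruits the NuRD repressor complex. The miR-290 family, of which miR-294 is a member, dominates the microRNAs of mouse ESCs; its members pair through a short seed with the 3' UTRs of many mRNAs, lower them and are known for shortening the G1 phase of the ESC cycle. An siRNA against a single target and a microRNA that also lowers that target therefore share 1 intended effect. The direct comparison asks how the microRNA and the siRNA differ apart from that shared effect. A difference can come from either side, and so also from effects of the siRNA on mRNAs other than Mbd2. Without the siRNA sequence, its matches to other mRNAs were not searched. The part of such effects in the results below was not tested.

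The sequences show which matches were searched for. They are RefSeq mature microRNAs of build GRCm38.p6, with bases 2 to 8, the seed, in capitals. miR-294-3p (chr7:3220691-3220712, plus strand) is the strand taken as the guide. The other microRNAs listed with names ending in 3p carry the same seed, AAGUGCU. Of these, miR-302b-3p and miR-302d-3p lie on chr3, apart from the miR-290 genes on chr7. Some microRNAs of the miR-290 genes have other seeds, such as AAGUGCC in miR-290a-3p and GUGCCGC in miR-293-3p. miR-294-5p, the opposite strand of the hairpin, also carries a different one.

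miR-294-3p: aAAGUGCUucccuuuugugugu
miR-291a-3p: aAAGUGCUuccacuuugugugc
miR-295-3p: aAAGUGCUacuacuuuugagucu
miR-302b-3p: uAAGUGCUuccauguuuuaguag
miR-302d-3p: uAAGUGCUuccauguuugagugu
miR-294-5p: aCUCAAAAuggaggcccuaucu

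The matching sites below lie in the 3' UTRs of genes whose mRNA stood far lower with miR-294 than with siMbd2. Each is 30 bases of the mRNA strand (GENCODE M21 transcripts, GRCm38, the assembly of mm10), with the match in capitals. The first 7 hold the 8-base match AGCACTTA, the complement of seed bases 2 to 8 followed by A, and Dazap2 holds the 7-base match AGCACTT. Mbd2 itself carries an 8-base match in its 3' UTR.

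Cdkn1a, chr17:29100500-29100507, plus strand: gtgggtgtcaaAGCACTTAgtgggtctgac
Lats2, chr14:57691086-57691093, minus strand: agtatggaaagAGCACTTAttttgtggata
Rbl2, chr8:91123830-91123837, plus strand: tgtatttttcaataaAGCACTTAtaaatta
Irf2, chr8:46846664-46846671, plus strand: ccttatcttgaAGCACTTAcaataggcctt
Erap1, chr13:74691633-74691640, plus strand: taactcataatAGCACTTActgaaaataaa
Syde1, chr10:78584795-78584802, minus strand: ttgaaaaactgAGCACTTAactcctcccct
Tgfbr2, chr9:116087771-116087778, minus strand: tcaaaacctaaAGCACTTAttttcaatcta
Dazap2, chr15:100619542-100619548, plus strand: cacataccttcAGCACTTctcacaatgtaa

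Read counts cannot be had from RPKM, which leaves sequencing depth and counting error unknown. The values of a library summed to between 429460 and 493079 RPKM and were highest in the 2 miR-294 libraries. The cells carried the ESC identity of their label, with all 8 ESC markers examined above 1 RPKM in mean and summing to between 5097 and 6687 RPKM per library. Of 8 markers of feeder fibroblasts, 3 were listed and 1, Thy1, reached a mean of 1 RPKM; the list summed to 3.72 and 4.06 RPKM with miR-294 and to 1.26 and 1.45 with siMbd2. Markers of trophectoderm (6 of 8 at a mean of 1 RPKM or more) summed to 23.6 to 25.0 RPKM with miR-294 and 28.9 to 29.4 with siMbd2, neural markers (4 of 8) to 13.2 to 13.3 and 22.0, mesoderm markers (2 of 8) to 8.82 to 8.86 and 5.15 to 5.73, and endoderm markers (1 of 10) to 4.79 to 4.94 and 3.18 to 4.03. These sums follow the most abundant markers, Tfap2c for trophectoderm, and did not always match the single genes. Of the 6 trophectoderm markers tested, 3 were higher and 2 lower with miR-294 at an adjusted p under 0.05 in limma. Their median difference was 0.27 on log2(RPKM + 1). The 1 endoderm marker tested, Gata4, was lower (-0.60). The neural (-0.68) and mesoderm (0.58) medians had the direction of their sums. No listed marker was at 0 in every library, and the part of other cell types in the results below was not tested. Dgcr8 mRNA was listed at 6.66 and 7.14 RPKM with miR-294 and 7.24 and 7.34 with siMbd2, which gene-level values cannot turn into a check of the deletion.

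Mbd2 was not brought to the same level by the 2 treatments. It stood at 26.8 and 27.9 RPKM in CTR, 11.3 and 12.3 with miR-294, and 7.33 and 6.34 with siMbd2. Both miR-294 libraries thus lay above both siMbd2 libraries and below both CTR libraries. On the scale used for all tests, log2(RPKM + 1), the miR-294 libraries exceeded the siMbd2 libraries in Mbd2 by 0.71 (SE 0.087, adjusted p = 2.23e-04, limma with Benjamini-Hochberg adjustment over all 11428 genes, as for every adjusted p below). The comparison is matched for dose and time, and not for the level of Mbd2.

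Across the genes tested, 6561 (57.4%) were called at an adjusted p under 0.05. With miR-294, 2500 (21.9%) were higher and 4061 (35.5%) lower than with siMbd2. On the log2(RPKM + 1) scale, which understates folds of genes at low RPKM, the calls at least 1.5-fold apart numbered 588 higher (5.15%) and 1634 lower (14.3%), and those at least 2-fold apart 122 higher (1.07%) and 434 lower (3.80%). The balance of directions depended on scaling. The higher share of all calls was 38.1% as deposited, 50.6% after median-of-ratios scaling (3425 higher, 3344 lower) and 51.5% after quantile normalization (3291 higher, 3100 lower), and at 2-fold it was 21.9%, 33.9% (169 and 330) and 41.2% (193 and 276). The median difference over all genes was -0.08 as deposited and 0.03 after quantile normalization. With 2 libraries on each side the smallest p of an exact permutation test is 0.333, and the calls rest on the spread limma shares across genes; the libraries of the 2 groups did not overlap for 9608 genes (84.1%).

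**Figure D1:**
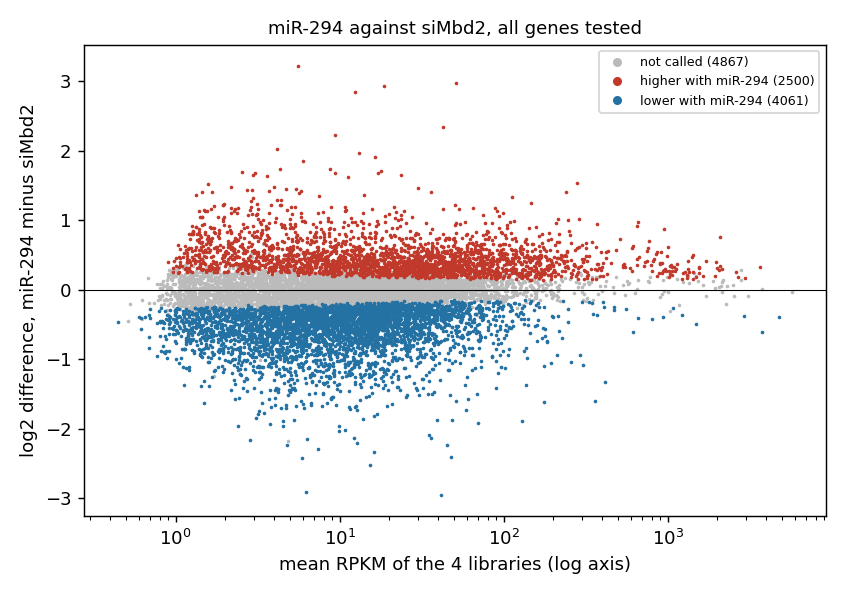
log2 difference of each gene tested (vertical, miR-294 minus siMbd2, on log2(RPKM + 1)) against its mean RPKM over the 4 libraries (log axis). The 2500 genes called higher and 4061 called lower with miR-294 are coloured, and the lower calls reach further from 0 at intermediate levels; 1 gene at 0 RPKM in all 4 libraries is not drawn.

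The genes furthest above siMbd2 with miR-294 included regulators of growth and development. Lin28a, the gene of an RNA-binding protein that keeps let-7 microRNAs from maturing, stood at 90.7 and 91.2 RPKM with miR-294 against 10.7 and 10.85 with siMbd2. Its CTR libraries read 4.42 and 5.44, so that both treatments lay above control and far apart from each other (log2 difference 2.97, SE 0.088, adjusted p = 7.6e-07; gene at chr4:134003330-134018841, minus strand, GRCm38). Myc, the growth-promoting transcription factor (chr15:61985391-61990374, plus strand), read 26.0 and 26.95 RPKM with miR-294, 5.71 and 6.91 with siMbd2, and 1.84 and 2.41 in CTR. Its difference was 1.91 (SE 0.12, adjusted p = 8.6e-06). The morphogen gene Bmp4 read 10.4 and 9.44 RPKM with miR-294 and 1.75 and 2.33 with siMbd2 (difference 1.85, SE 0.11, adjusted p = 9.5e-06). Axin2, a target and negative regulator of WNT signalling, read 7.17 and 7.40 against 1.15 and 0.94 (difference 2.02, SE 0.13, adjusted p = 9.5e-06).

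The other genes with the largest positive differences ranged from 1.96 to 3.21. Spink3, a secreted trypsin inhibitor, had the largest (11.5 and 10.3 RPKM against 0.13 and 0.45, difference 3.21). Calca, which encodes calcitonin and its related peptide, read 34.0 and 33.5 against 3.56 and 3.55 (2.93). The X-linked homeobox gene Rhox5 read 71.7 and 72.3 against 14.1 and 12.8 (2.34). Pla2g1b (2.84), 1110002L01Rik (2.22) and the apolipoprotein gene Apoa2 (1.96) completed the set. The choice of these 10 genes required that the libraries of the 2 groups did not overlap and that the higher group had a mean of at least 5 RPKM. In bulk libraries a change in the share of a kind of cell and a change in RNA per cell cannot be told apart, here or below.

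The genes furthest below siMbd2 with miR-294 included cell-surface and immune genes. Msln, which encodes the surface protein mesothelin (chr17:25748613-25754378, minus strand), read 8.83 and 8.58 RPKM with miR-294 against 76.1 and 71.75 with siMbd2, with CTR at 75.0 and 61.9. The siMbd2 libraries thus sat at the upper end of control while the miR-294 libraries sat far below both (difference -2.95, SE 0.090, adjusted p = 7.6e-07). Psmb8, an immunoproteasome subunit (chr17:34197721-34201454, plus strand), read 0.46 and 1.01 against 11.8 and 11.8 (difference -2.90, SE 0.16, adjusted p = 6.2e-06). Plagl1, an imprinted zinc finger gene, read 4.87 and 4.46 against 27.7 and 27.5 (-2.34), and Gsdmd, the pore-forming effector of pyroptosis, 4.03 and 3.84 against 22.1 and 21.2 (-2.20). The metalloprotease gene Mmp23 (-2.51), the chemokine gene Cxcl10 (-2.42), Tapbp (-2.40), Syde1 (-2.30), Erap1 (-2.23) and the ubiquitin-like modifier gene Ubd (-2.23) made up the rest of the 10. For Cxcl10 and Ubd the gap came from both sides of control. Against CTR, Cxcl10 differed by 1.28 with siMbd2 and by -1.135 with miR-294, and Ubd by 1.28 and -0.94. The CTR libraries read 4.63 and 2.96 RPKM for Cxcl10 and 30.85 and 29.36 for Ubd. The 3' UTRs of Msln, Psmb8 and Tapbp held no match to the seed of miR-294-3p.

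**Figure D2:**
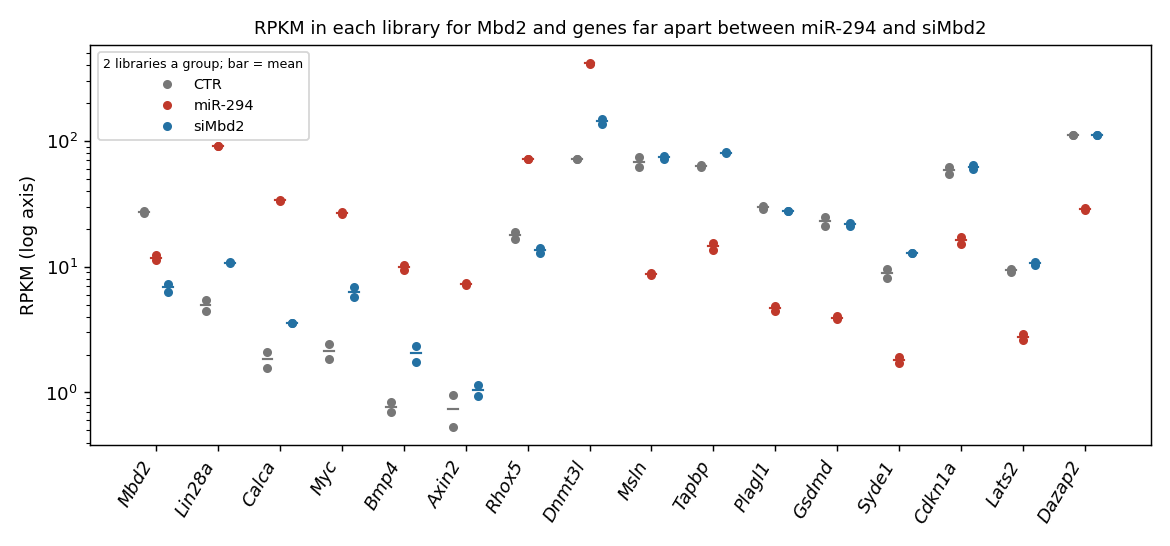
RPKM (log axis) in each library for Mbd2, for genes higher with miR-294 (Lin28a to Dnmt3l) and for genes lower with it (Msln to Dazap2); each point is a library and each bar the mean of 2. Dazap2 stood at 29.3 and 28.1 RPKM with miR-294, while siMbd2 (112 and 111) and CTR (111 and 112) lay at one level.

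By absolute level, the largest surpluses with miR-294 included genes of ribosome assembly and translation. Npm1, a nucleolar chaperone, stood at 2612 and 2615 RPKM with miR-294 and 1518 and 1576 with siMbd2 (difference 0.76, SE 0.064, adjusted p = 3.8e-05). The histone chaperone gene Set (0.87) and the ribosomal protein genes Rpl36 (0.39) and Rplp1 (0.32, adjusted p = 0.0456) followed. The call on Rplp1 was lost without any 1 of the 4 libraries (adjusted p 0.0956 to 0.198), and that on Rpl36 without miR-294 replicate 1 (0.071) or siMbd2 replicate 2 (0.0682). The largest deficits were in Dppa5a, an ESC RNA-binding protein gene (2958 and 2989 RPKM against 4715 and 4375, difference -0.61), mt-Co1, the metallothionein genes Mt1 (-0.49) and Mt2 (-0.38) and the interferon-induced gene Ifitm1 (-1.60). The Mt2 call was lost without miR-294 replicate 1 (adjusted p = 0.0736) or siMbd2 replicate 1 (0.0681), and that on mt-Co1 without miR-294 replicate 1 (0.0606) or after quantile normalization (0.346).

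Seed matches in the 3' UTR went with lower mRNA in the direct comparison. Matches were sought on the mRNA strand only, in each gene's longest 3' UTR, which was found for 11235 of the genes tested (98.3%). Each gene was placed in the strongest class it held: the 8-base match AGCACTTA, the 7-base match AGCACTT, the 7-base match GCACTTA, or the 6-base match GCACTT, which lies inside all of them. The 413 genes with an 8-base match (3.68% of genes with a 3' UTR) had a median difference of -0.34, and 58.1% of them were called lower against 35.5% of all genes tested. The median was -0.22 for 1579 genes with AGCACTT, -0.18 for 372 with GCACTTA, -0.13 for 1386 with the 6-base match only and -0.03 for 7485 genes with no match, of which 31.0% were called lower. At 2-fold, 10.7% of the 8-base class and 2.97% of the class with no match were lower. The order of the classes is thus the order of match length. It is also the order of their median 3' UTR lengths, from 771 bases with no match through 1920, 2158 and 2425 to 2766 in the 8-base class.

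**Figure D3:**
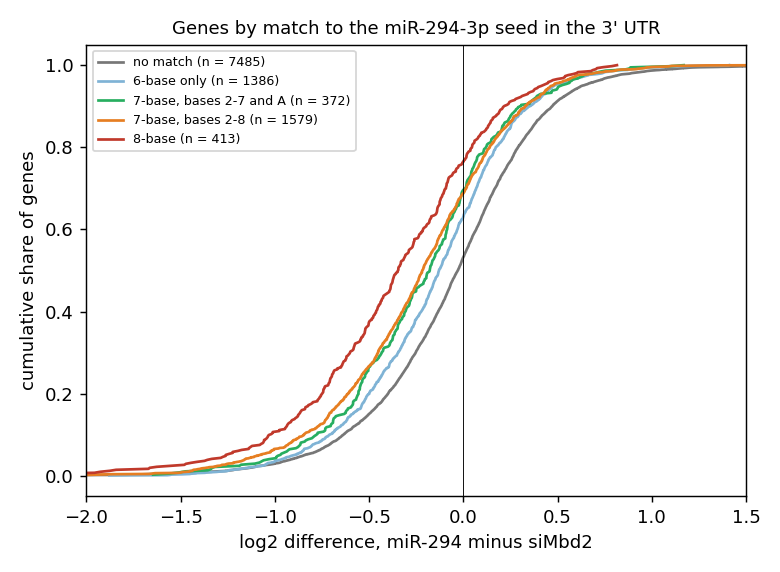
Cumulative share of genes (vertical) with a log2 difference (miR-294 minus siMbd2) up to the value on the horizontal axis, by strongest match to the miR-294-3p seed in the 3' UTR. The curve of the 413 genes with an 8-base match lies furthest left (median -0.34) and that of the 7485 genes with no match furthest right (median -0.03).

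Replicates differed little in this separation. Taken in single libraries and relative to the mean of the 4, the median of the 8-base class minus that of the class with no match was -0.15 and -0.16 in the 2 miR-294 libraries and 0.15 and 0.16 in the 2 siMbd2 libraries; the centring makes the 2 groups mirror each other. With siMbd2 alone against CTR, the median was -0.04 for the 8-base class and 0.04 for no match; with miR-294 against CTR it was -0.38 and -0.01. These comparisons share their control libraries, and are given side by side for that reason only. More matches went with lower medians: -0.05 for no 7- or 8-base match, -0.22 for 1, -0.26 for 2 and -0.29 for 3 or more. Median 3' UTR length rose in the same order (903, 2156, 3263 and 5302 bases). The number of matches was not separated from length.

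Length and base composition moved with the difference too. Among genes with no match, the median fell from 0.07 in the fifth with the shortest transcripts to -0.15 in the fifth with the longest, and was 0.03 in the fifth with the lowest GC content and -0.15 in the highest. Within 4 classes of 3' UTR length with equal numbers of genes, the 8-base class stood at -0.73, -0.41, -0.36 and -0.31, from the shortest to the longest, and the class with no match at 0.02, -0.03, -0.07 and -0.09, so the separation was present in each class; the shortest holds only 16 genes with an 8-base match. The part of length and GC content in the rest of the pattern was not tested. The seed of the opposite strand, miR-294-5p, was searched with the same 4 kinds of match, of which TTTTGAGA is the 8-base one, and its classes had medians of -0.10 to -0.12 against -0.06 for none. Among genes with no match in the 3' UTR, those with AGCACTTA in the coding sequence (142 genes) stood at -0.14, those with AGCACTT at -0.13 and those with no coding match at -0.0040.

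One context of the 7-base match is given apart, and was picked out after the values had been seen. Over all GENCODE 3' UTRs, the most frequent continuation of AGCACTT was AGCACTTGGGAG, at 317 matches (8.42%). These letters belong to the B1 repeat, a short interspersed element found in many mouse 3' UTRs. Tgfbr2 shows both kinds of match in 1 gene, with the first line below at chr9:116085356-116085362 and the second at chr9:116089881-116089887, both on the minus strand.

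Tgfbr2, match inside B1 letters: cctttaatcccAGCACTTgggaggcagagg
Tgfbr2, match elsewhere: gggatagcgttAGCACTTgacaatcagtca

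Among genes whose only 7-base match was a single AGCACTT, the 117 with that match inside these letters had a median difference of -0.07, with 30.8% called higher and 35.9% lower. The 1088 with it elsewhere had a median of -0.22, with 13.5% called higher and 48.9% lower. Elsewhere means any continuation other than these exact letters, so a copy of the repeat that differs in them counts there. The median 3' UTR lengths of these groups were 2272 and 2147 bases. The difference between them was not tested.

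Described targets of the miR-290 family were lower with miR-294 almost throughout. Of 17 listed, 16 reached 1 RPKM (Dkk1 did not). Of the 16, 15 were lower with miR-294 than with siMbd2 and 1, Mbd2, higher, against 35.5% and 21.9% of all genes tested. The median was -1.06, against -0.08 for all genes. Dazap2, an mRNA-associated protein gene, read 29.3 and 28.1 RPKM against 112 and 111 with siMbd2, and siMbd2 left it at the level of CTR (111 and 112); the difference was -1.92 (SE 0.054, adjusted p = 7.6e-07). Irf2, a transcription factor of the interferon system, read 0.43 and 0.37 against 4.53 and 4.34 (-1.96). Lats2, a Hippo pathway kinase gene, read 2.92 and 2.61 against 10.85 and 10.4 (-1.63). The Nodal inhibitor Lefty2 was lower with miR-294 (5.27 and 4.94 RPKM) than with siMbd2 (13.55 and 13.35), and both were below CTR (22.7 and 21.25). The kinase gene Akt1 (-1.09), Casp2 (-1.02), Tgfbr2 (-1.26) and Rbl2 (-1.41) were lower as well.

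Irf2 aside, whose higher group did not reach 5 RPKM, the 8 called genes with an 8-base match and the largest deficits included regulators of the cell cycle, of Ral and of the interferon response. Cdkn1a, which encodes the CDK inhibitor p21, read 17.2 and 15.1 RPKM with miR-294 against 59.6 and 64.05 with siMbd2, with CTR at 61.4 and 54.8 (difference -1.88, SE 0.084, adjusted p = 3.8e-06). Oasl2, an interferon-induced gene, read 1.24 and 0.77 against 6.82 and 6.32 (-1.93), and Prkcdbp, a caveola component, 0.78 and 0.77 against 5.26 and 5.47 (-1.84). Ralgds, an exchange factor for Ral, and the kinase gene Hipk3 differed by -1.67 and -1.66. Syde1 had the largest deficit of the set (1.93 and 1.72 against 12.8 and 12.9).

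CDK inhibitors were mostly lower with miR-294, and G1 genes lay on both sides. Of 9 CDK inhibitors and retinoblastoma proteins, 8 were lower and 1 higher with miR-294, with a median of -0.56. Cdkn2a (-0.97), Cdkn2d (-0.77) and Cdkn1b (-0.54) were lower, and Cdkn1c, the imprinted inhibitor p57, was higher at 11.65 and 10.7 RPKM against 3.63 and 3.95 (1.35, adjusted p = 1.0e-05). Of 26 G1 cyclins, kinases, E2Fs and licensing factors, 11 were higher and 9 lower (median 0.06). Among all genes tested, 21.9% were higher and 35.5% lower. Cyclin E1, Ccne1, was higher (107 and 98.7 against 56.3 and 58.2 RPKM, 0.83) while cyclin D1, Ccnd1, was lower (26.0 and 25.0 against 49.4 and 51.2, -0.95). Of 18 Hippo pathway genes, 14 were lower and 1, Ctgf, higher (median -0.43), among them Lats1 (-0.86), Tead4 (-0.87) and the target Cyr61 (-1.02).

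Myc and the genes that respond to it were higher with miR-294. Of 40 Myc-responsive growth genes, 34 were higher and 3 lower with a median of 0.42, against 21.9% and 35.5% of all genes tested. Under the other scalings they numbered 35 and 2, or 30 and 4. Srm, spermidine synthase, read 155 and 153 RPKM against 78.6 and 76.1 (0.98, SE 0.086, adjusted p = 4.3e-05), and Gnl3, a nucleolar GTP-binding protein, 144 and 145 against 73.5 and 73.4 (0.97). Ldha (-0.29), Tfrc (-0.32) and Ipo4 (-0.40) were the 3 lower members; Tfrc lost its call without any 1 of the 4 libraries (adjusted p 0.0508 to 0.101). In the MYC family itself, Mycn (0.43), Mycl (0.84) and the partner Max (0.29) were higher, and the antagonists Mxd3 (-1.38), Mnt (-0.65), Mxd4 (-0.61), Mxi1 (-0.56) and Mxd1 (-0.26) lower. Mxd1 also lost its call without any 1 of the 4 libraries (adjusted p 0.053 to 0.249) and after both other scalings. The 3' UTRs of Mxd3, Mnt, Mxi1 and Mxd1 hold AGCACTT, and so does that of Mycn, which was higher. The E-box CACGTG is a palindrome that MYC and its partners bind. A gene was counted if any of its 300-base RefSeq promoters held it. This was so for 13 of 33 Myc-responsive genes with a listed promoter (39.4%). That list was chosen as Myc-responsive, so its share describes the list and is not a result of these libraries. By the calls made here, the shares were 15.2% of genes called higher, 11.3% of those called lower and 12.2% of all genes tested with a promoter. Over all gene symbols with a listed promoter, tested or not, it was 8.09%.

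Translation and polyamine genes followed the same direction with smaller differences. Of all 11428 genes tested, 21.9% were higher and 35.5% lower as deposited, and 3291 were higher and 3100 lower after quantile normalization. Of 49 cytosolic ribosomal protein genes, 38 were higher and none lower (median 0.27), yet 15 were higher and 3 lower after quantile normalization (median 0.05), so this result depended on scaling. In limma at an unadjusted p under 0.05, 41 were higher and none lower. Rpl27 stood apart at 0.91. Of 11 polyamine genes 7 were higher, led by Srm and ornithine decarboxylase, Odc1 (320 and 322 RPKM against 174 and 182, 0.84), and 1, the spermine oxidase gene Smox (-0.45), was lower. Of 44 nuclear-encoded respiratory chain genes, 20 were higher and 1 lower as deposited, and 11 and 8 after quantile normalization.

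Genes of the ATF4 stress programme, which supplies amino acids and charged tRNAs, were higher with miR-294. Of 30 tested, 24 were higher and 1, Sesn2, lower (median 0.65), against 21.9% and 35.5% of all genes tested. The counts were 27 and 1 after median-of-ratios scaling and 26 and 1 after quantile normalization. Of all 11428 genes, 3425 were higher under the first of these scalings and 3291 under the second. The Sesn2 call (-0.27) was lost without any 1 of the 4 libraries (adjusted p 0.0546 to 0.0781). Chac1, which degrades glutathione, read 26.4 and 26.8 RPKM against 8.24 and 7.05, with CTR at 8.15 and 6.96 (difference 1.68, SE 0.098, adjusted p = 7.7e-06). Nupr1 (1.22), Trib3 (1.13), the stress factor Ddit3 (1.08), the serine synthesis enzyme Phgdh (1.07) and asparagine synthetase, Asns (0.80), were higher, as was Atf4 itself (252 and 251 RPKM against 164 and 158, 0.64). The members Cebpg (-0.14), Vldlr (0.08), Ddit4 (0.11), Cebpb (0.31) and Atf3 (0.45) were not called. Cebpb and Atf3 were called without either CTR library (adjusted p 0.0117 to 0.0121 and 0.0449 to 0.0456), and Atf3 without miR-294 replicate 1 (0.69, adjusted p = 0.0145).

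**Figure D4:**
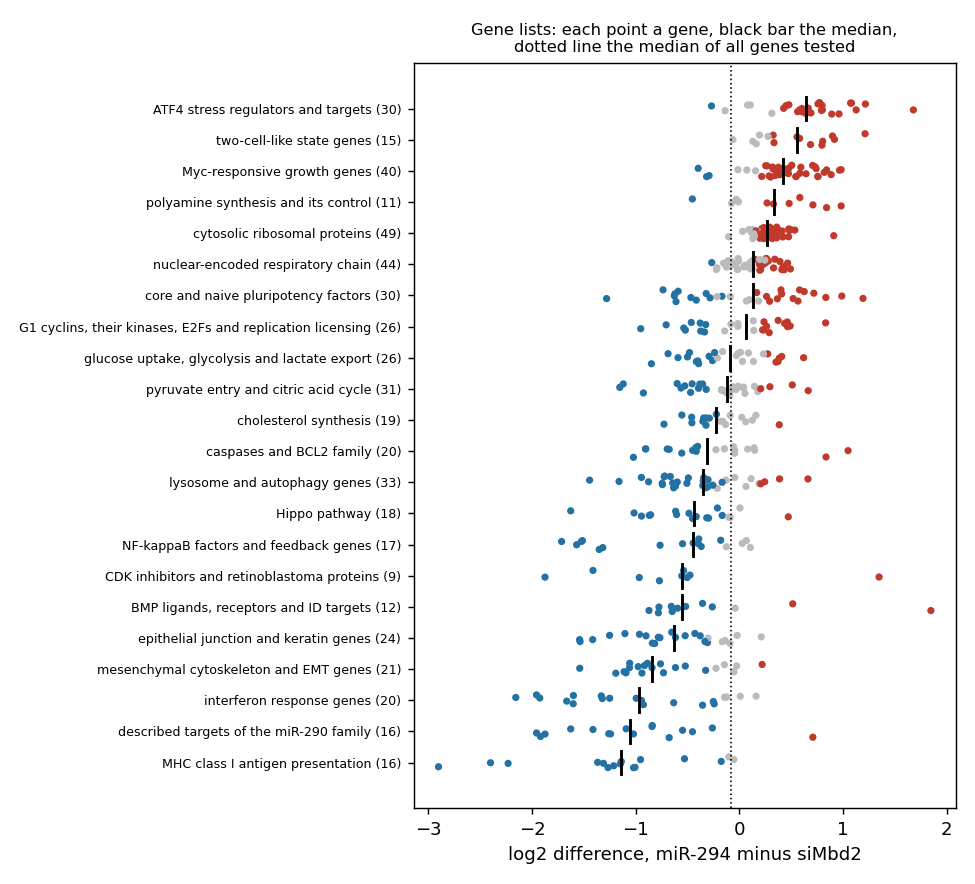
log2 differences (miR-294 minus siMbd2, horizontal) of the members of 22 gene lists; each point is a gene, red where called higher, blue where called lower and grey where not called, with the list's median as a black bar and the number tested in brackets. MHC class I presentation (median -1.14) and described miR-290 targets (-1.06) lie furthest below the median of all genes (-0.08, dotted), and ATF4 targets (0.65) furthest above.

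Antigen presentation was lower with miR-294 than with siMbd2. Of 16 MHC class I pathway genes, 14 were lower and none higher, with a median of -1.14; after quantile normalization 16 were lower, and after median-of-ratios scaling 13. At an unadjusted p under 0.05 in limma, 14 were lower and none higher. The shares of all genes tested called at the adjusted threshold were 35.5% lower and 21.9% higher. Tapbp, the peptide-loading factor tapasin, read 15.4 and 13.55 RPKM against 80.3 and 80.75, with CTR at 64.6 and 62.45 (-2.40, SE 0.070, adjusted p = 7.6e-07). Erap1, which trims peptides for loading, read 1.12 and 0.94 against 8.08 and 8.98. The class I heavy chain H2-D1 stood at 8.54 and 8.77 RPKM with miR-294, 22.0 and 20.7 with siMbd2 and 14.1 and 10.5 in CTR, so the treatments lay on either side of control. B2m (11.4 and 10.7 against 26.5 and 24.55, CTR 15.7 and 20.85) did the same. In all, 7 of the 16 had both miR-294 libraries below and both siMbd2 libraries above both CTR libraries, against 9.69% of all genes tested, and others did not: Erap1 and Psme2 read lower with siMbd2 than in CTR. The endoplasmic reticulum chaperones Pdia3 (-0.10) and Canx (-0.05) were not called; both were after quantile normalization (-0.27 and -0.22), and Pdia3 without either CTR library (adjusted p 0.0241 and 0.0245).

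NF-kappaB genes were also lower with miR-294 than with siMbd2. Of 17 factors and feedback genes, 13 were lower with miR-294 than with siMbd2 and none higher (median -0.45), and 12 and none after median-of-ratios scaling, or 11 and 2 after quantile normalization. The counts at an unadjusted p under 0.05 in limma were 13 lower and none higher. Of all genes tested, 35.5% were called lower and 21.9% higher at the adjusted threshold. Nfkb2 read 5.06 and 4.72 RPKM with miR-294, 17.99 and 18.67 with siMbd2, and 10.2 and 9.06 in CTR (-1.72, SE 0.085, adjusted p = 4.9e-06). Tnfaip3, a feedback inhibitor, read 0.66 and 0.66, 3.79 and 4.07, and 1.73 and 1.84 in the same order (-1.57). Relb (-1.52), the inhibitor Nfkbia (-1.51), Birc3 (-1.35) and Nfkbie (-1.32) also had both miR-294 libraries below both CTR libraries and both siMbd2 libraries above them. In all, 8 of the 17 did so, against 9.69% of all genes tested. Among immediate early genes Ier3 (4.83 and 6.07 against 22.7 and 22.0 RPKM, CTR 10.2 and 10.2; -1.86) and Junb (-1.24) lay on either side of control as well.

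Interferon response genes were mostly lower. Of 20, 16 were lower and none higher (median -0.97), against 35.5% and 21.9% of all genes tested. After either other scaling 1, Ddx58, was higher. In limma, an unadjusted p under 0.05 was met by 16 lower and no higher member. Isg15 read 0.47 and 0.35 RPKM against 5.50 and 5.07, Zbp1 2.26 and 1.88 against 8.19 and 9.29, and Ifitm3 233 and 236 against 607 and 578. The cytosolic RNA sensor Ddx58 (0.16), Oas1a (0.01), Bst2 (-0.12) and Stat2 (-0.14) were not called, but Ddx58 and Bst2 were without either CTR library (adjusted p 0.0279 to 0.0286 and 0.0482 in both).

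**Figure D5:**
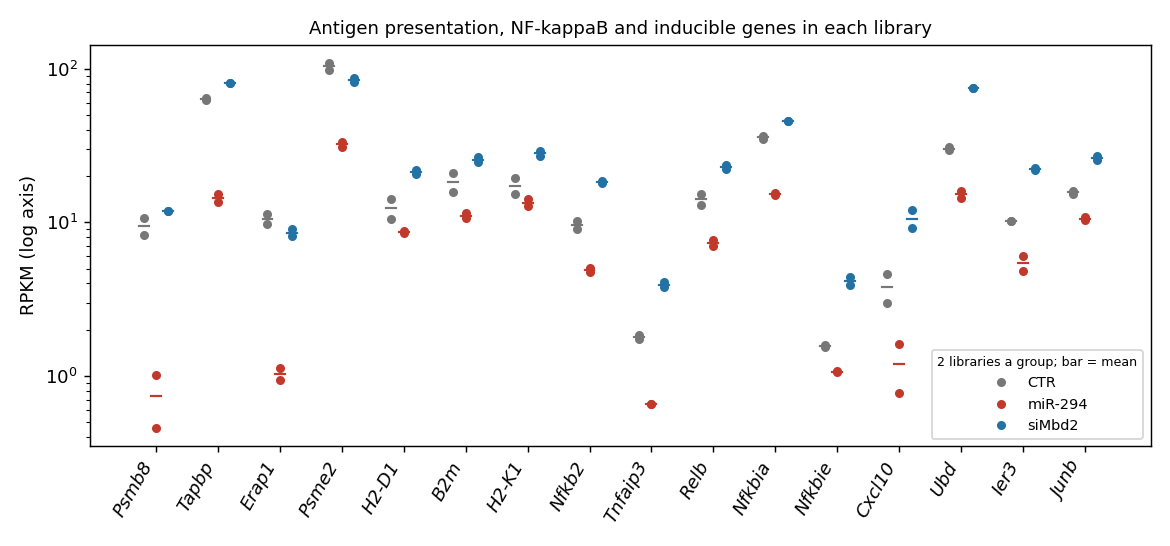
RPKM (log axis) in each library for antigen presentation, NF-kappaB and inducible genes; each point is a library and each bar the mean of 2. For Nfkb2, Relb, Nfkbia and Ier3 the siMbd2 libraries lie above CTR and the miR-294 libraries below it.

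Adhesion and cytoskeletal genes of both epithelial and mesenchymal lists were lower with miR-294. As a reference for the list counts that follow, 35.5% of all genes tested were lower and 21.9% higher. Of 24 epithelial genes, 18 were lower and none higher (median -0.63; 20 and none at an unadjusted p under 0.05 in limma, and 1 higher after either other scaling), and of 21 mesenchymal genes 16 were lower and 1, Fn1 (0.22), higher (median -0.84). The call on Fn1 was lost without any 1 of the 4 libraries (adjusted p 0.0506 to 0.269) and after quantile normalization (0.177). Cdh1, E-cadherin, read 58.4 and 55.25 RPKM against 110 and 114 (-0.96), and the claudin genes Cldn3 and Cldn7 differed by -1.54 each. Vimentin, Vim, whose 3' UTR holds an 8-base match, read 97.0 and 89.1 against 190 and 178 (-0.98). For S100a6 the miR-294 libraries (53.5 and 57.8) stood at the level of CTR (53.8 and 51.2) and siMbd2 above it (126 and 131; difference -1.19). Of 33 lysosome and autophagy genes, 23 were lower and 4 higher (median -0.35), among them the membrane protein gene Lamp2, which has an 8-base match (15.75 and 15.1 against 44.4 and 42.9 RPKM, -1.45), and progranulin, Grn (-1.16).

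Pluripotency factors lay on both sides. Of 30, 14 were higher and 11 lower (median 0.13), against 21.9% and 35.5% of all genes tested. Pou5f1 read 1059 and 1056 RPKM against 914 and 946 and was not called (0.19, adjusted p = 0.0549), although it was after median-of-ratios scaling (0.29, adjusted p = 2.6e-03) and without either CTR library (adjusted p = 1.3e-03 in both). Sox2 read 194 and 191 against 208 and 202 (-0.09, adjusted p = 0.267), and was called lower after quantile normalization (-0.27, adjusted p = 6.3e-03) and without either CTR library (adjusted p 0.0431 and 0.0436). Nanog was lower, at 206 and 211 against 297 and 279 (-0.47, SE 0.057, adjusted p = 2.2e-04), as was the LIF co-receptor gene Il6st (-1.28). Eras, which encodes a Ras-like protein of ESCs (31.3 and 29.4 against 12.6 and 12.8, 1.19), the nuclear receptor genes Nr5a2 (0.99) and Nr0b1 (0.72) and Zfp42 (0.58) were higher.

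Signalling genes lay on both sides. For reading the counts, 21.9% of all genes tested were higher and 35.5% lower. In the Nodal and TGF-beta list 9 of 19 were lower and 2 higher: the ligand Nodal (0.44) and its co-receptor gene Tdgf1 (0.26) were higher, and the Nodal inhibitors Lefty1 (-0.84) and Lefty2 (-1.24) and the receptors Tgfbr1 (-0.71) and Tgfbr2 lower. The Tdgf1 call was lost without miR-294 replicate 2 (adjusted p = 0.0578) and after quantile normalization (0.384). In the BMP list 9 of 12 were lower and 2 higher (median -0.56): the ligand Bmp4 was higher, the receptors Bmpr2 (-0.78), Acvr1 (-0.66) and Bmpr1a (-0.65) lower, and of the ID targets Id3 was higher (0.52) and Id2 (-0.87), Id4 (-0.60) and Id1 (-0.52) lower. Id4 lost its call without replicate 2 of miR-294 (adjusted p = 0.068) or of siMbd2 (0.0656). In the WNT list Axin2, Lef1 (4.99 and 4.99 RPKM against 0.79 and 1.02, 1.66) and Cdx1 (0.66) were the 3 higher of 15, and 6 were lower, among them the ligand Wnt7b (-1.03), Tcf7l2 (-0.90) and Gsk3b (-0.72). These shares are near those of all genes, and the counts were 5 and 6 after median-of-ratios scaling and 4 and 4 after quantile normalization. Of 16 MAPK feedback and immediate early genes 8 were higher and 5 lower, with the receptor tyrosine kinase inhibitors Spry2 (1.16) and Spry4 (0.75) and the ETS factor Etv4 (0.61) higher. Of 13 primed and formative markers 7 were higher and 5 lower: Fgf15 (0.89), Sox3 (0.78) and Pou3f1 (0.64) were higher, and Otx2 (-1.10) and Pax6 (-1.02) lower.

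The de novo DNA methyltransferase genes and their cofactor were higher with miR-294. Dnmt3l, the cofactor of the de novo enzymes (chr10:78041947-78063622, plus strand), read 416 and 411 RPKM with miR-294, 135 and 150 with siMbd2, and 71.6 and 72.25 in CTR (1.53, SE 0.061, adjusted p = 2.5e-06). Dnmt3a read 52.8 and 52.6 against 18.6 and 20.0, with CTR at 25.9 and 18.8 (1.40), and Dnmt3b 76.9 and 74.8 against 45.8 and 48.6 (0.67). Uhrf1 (0.48) and Gadd45a (0.26) were higher too, which makes 5 of 12, while Gadd45b (-1.39), Tet3 (-0.59) and Tet2 (-0.25) were lower and the maintenance enzyme gene Dnmt1 (-0.12) was not called. Tet2 lost its call without any 1 of the 4 libraries (adjusted p 0.105 to 0.132) and under both other scalings, Gadd45a without siMbd2 replicate 2 (0.0546) and after quantile normalization (0.187), and Dnmt1 was called without either CTR library (0.0396 in both). In the list of 18 methyl-CpG binding and NuRD genes, which includes Mbd2 itself, 4 were higher and 6 lower. These counts are near the shares of all genes tested (21.9% and 35.5%), and were 7 and 4 after median-of-ratios scaling. Mbd2 (0.71), the target of the siRNA, was 1 of the 4 higher. Of the relatives and partners of Mbd2, Mbd1 (-1.04), Zbtb4 (-1.16) and the NuRD remodeller gene Chd3 (-0.73) were lower, and Mbd3 (0.37) and Rbbp4 (0.41) higher.

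Glycolysis genes lay on both sides. Of 26, 6 were higher and 11 lower (median -0.09), near the shares of all genes tested (21.9% and 35.5%), and 9 and 9 after median-of-ratios scaling. Pyruvate kinase, Pkm, read 1234 and 1209 RPKM with miR-294, 797 and 793 with siMbd2 and 670 and 575 in CTR (0.62, SE 0.075, adjusted p = 2.1e-04). Lactate dehydrogenase A, Ldha, which carries AGCACTT in its 3' UTR, read 427 and 417, 526 and 508, and 362 and 331 (-0.29, adjusted p = 3.5e-03), so both treatments lay above CTR and siMbd2 further. Triosephosphate isomerase, Tpi1, stood at 172 and 172 with miR-294, 279 and 277 with siMbd2, and 198 and 176 in CTR (-0.69). The lactate exporter Slc16a3 read 34.8 and 35.4, 54.3 and 52.5, and 22.0 and 18.5 in the same order (-0.59). For Slc16a3 both treatments thus lay above CTR and siMbd2 further, while for Tpi1 only siMbd2 lay above CTR. Aldoa (0.41), Pgam1 (0.39), Slc16a1 (0.37), Slc2a3 (0.35) and Eno1 (0.27) were higher, and Hk1 (-0.85) and Slc2a1 (-0.42) lower. The calls on Aldoa and Eno1 were lost after quantile normalization (adjusted p 0.341 and 0.345), and that on Eno1 without miR-294 replicate 1 (0.0531), miR-294 replicate 2 (0.0774) or siMbd2 replicate 1 (0.076).

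Both genes of the mitochondrial pyruvate carrier were lower with miR-294. Of 31 genes of pyruvate entry and the citric acid cycle, 13 were lower and 4 higher (median -0.12). Among all genes tested, 35.5% were lower and 21.9% higher. The pyruvate carrier genes Mpc1 (20.7 and 24.4 RPKM against 43.9 and 43.3, -0.93) and Mpc2 (9.27 and 7.98 against 20.8 and 19.9, -1.15) were lower, and both have a match, of 8 bases in Mpc1 and 7 in Mpc2. Idh2 (64.4 and 63.6 against 149 and 132, -1.12), Mdh2 (-0.60) and Cs (-0.46) were lower as well. Suclg2 (0.66) and Pdhb (0.51) were higher. Of 13 mitochondrially encoded genes 5 were lower and none higher (7 and none at an unadjusted p under 0.05 in limma), a share near the 35.5% of all genes. The lower count was 12 in a fit of only the 4 libraries compared, 7 after quantile normalization and 3 after median-of-ratios scaling, with none higher in each. mt-Nd3, mt-Atp6 and mt-Nd4l were among those called lower without either CTR library. These genes took 2.53% and 2.68% of the summed RPKM with miR-294 against 3.27% and 3.38% with siMbd2.

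Some of the strongest responses to the siRNA were shared in level by the mimic. Of the 4 genes furthest above CTR with siMbd2, AU015836 read 35.05 and 32.7 RPKM with miR-294 and 35.4 and 35.8 with siMbd2 (difference -0.07, 95% interval half-width 0.15, adjusted p = 0.400), with CTR at 10.8 and 10.2. Fgf17 read 10.8 and 10.2 against 8.67 and 9.64 (0.18, adjusted p = 0.151; 0.0316 after median-of-ratios scaling and 9.9e-03 after quantile normalization), while Hopx (-0.53) and Tnfsf9 (-0.95) were lower with miR-294. Of those furthest below CTR, Pter, a phosphotriesterase-related gene, read 5.56 and 5.06 against 5.47 and 4.07 (0.14, adjusted p = 0.345, and 0.0278 after quantile normalization; CTR 18.6 and 17.6), Copz2 was lower still with miR-294 (-0.66; adjusted p 0.0572 without miR-294 replicate 2 and 0.062 without siMbd2 replicate 1), and the predicted gene Gm10351 was listed at 0 in all 4 libraries. A p that misses the threshold does not show that the treatments act alike on these genes.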

How the data were processed

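RNA was measured in 6 libraries, 2 each of CTR, miR-294 and siMbd2, from total RNA extracted with Trizol and paired-end Illumina libraries, per the labels' protocols. The authors deposited 1 table of 13743 entries with RPKM for each library, per the file headers, and each sample is the average of 2 lanes, per the labels. The deposited fold ratios of each treatment over mock were not used in any test. CASAVA 1.7, STAR 2.3.0, Cufflinks and mm10 are named in the submitters' processing notes, without their roles; no annotation or counting rule is named. RPKM removes depth and length, so depth and counting error are unknown; 19 symbols stand on several entries, which were kept apart.

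Values were taken as log2(RPKM + 1) and fitted with limma 3.58.1 in R 4.3.3, with 1 model of the 3 groups, a mean-variance trend, 3 residual and 5.378 prior degrees of freedom, and two-sided tests adjusted by Benjamini-Hochberg over the 11428 entries with a mean of at least 1 RPKM. The script was tested on simulated data. 3' UTRs came from GENCODE M21 (GRCm38, the assembly of mm10), and microRNAs and promoters from RefSeq GRCm38.p6. Python 3.11.15, numpy 2.4.6, pandas 2.3.3 and matplotlib 3.10.9 were used for summaries and plots.

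Genes were named by a rule: the 10 largest and 10 smallest differences with groups that do not overlap and a higher mean of at least 5 RPKM, the 5 largest differences of RPKM each way, fixed genes of the question, the 8 lowest with an 8-base match under the same conditions, up to 5 leading members of each list with at least 2 RPKM, list-defining members, and the 4 highest and 4 lowest of siMbd2 against CTR. Further members, among them exceptions to a list's direction, were named after their values were seen. A few genes that the rule picks are not reported here. The comparison, the 38 gene lists and the 6 marker lists were chosen with earlier results of these data known. Alternatives were other pseudocounts, filters, scalings, libraries in the fit, the trend, a replicate block, another 3' UTR and leaving out each library; list counts under other scalings or with 4 libraries were added after the data had been seen.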

Additional observations from a re-analysis of the deposited data

How the results depend on the processing

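The 6561 calls numbered 6391 to 7215 under the other pseudocounts, scalings, no filter and no trend, 4994 with a minimum mean of 5 RPKM, where fewer genes were tested, and 7754 with only the 4 libraries compared. Leaving out 1 library gave 4741 to 7754 calls; the lone library left in a group is then assumed to vary like the others. The 2222 calls at least 1.5-fold apart fell to 961 with a pseudocount of 5, which shrinks low genes by construction, and numbered 2184 to 2305 with 1 library left out. At 2-fold the 556 became 148 with a pseudocount of 5 and 979 with 0.1. The median of the 8-base class minus that of genes with no match, -0.32, was -0.36 with a pseudocount of 0.1, -0.20 with 5, -0.30 with no filter, -0.36 with a minimum mean of 5 RPKM, -0.25 after quantile normalization and -0.34 with the 3' UTR of the longest coding sequence, and -0.34 to -0.30 with 1 library left out; the cause of these shifts was not tested. It remained below 0 under each of these alternatives.

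For 286 named genes, 4118 of 4243 alternative values kept their direction and their side of the threshold, 58 lost a call (19 genes), 67 gained one (17 genes) and none reversed while called. Medians of 7 of 38 lists changed sign under some setting: the Myc network, Lin28 and let-7, NuRD, glycolysis, FGF and Polycomb lists under median-of-ratios scaling (Lin28 and Polycomb also after quantile normalization, and Lin28 without miR-294 replicate 2), and the primed markers with a minimum mean of 5 RPKM (0.61 to -0.26, fewer genes tested).

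Libraries with the same replicate number were not paired by any label, and their deviations correlated at 0.12, 0.13 and 0.02 over genes. With the replicate number as a block, 6815 genes were called (2612 higher, 4203 lower).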

Other observations

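The lists below are read against the 21.9% of all genes tested that were higher and the 35.5% that were lower with miR-294. Of 21 imprinted genes, 10 were higher and 5 lower (median 0.04). Phlda2 read 42.8 and 45.9 RPKM against 15.2 and 15.6 (1.47), Grb10 89.8 and 90.4 against 41.3 and 37.8 (1.17), Snrpn 126 and 128 against 62.2 and 59.6 (1.05) and Igf2 differed by 0.89, while Rtl1 (-0.59) was lower. Of 15 genes of the two-cell-like state, 10 were higher and none lower (median 0.56; 12 and none at an unadjusted p under 0.05 in limma); Gm8300 (6.26 and 6.75 against 2.28 and 2.19, 1.21) and Usp17lc (0.92) led, and Zscan4b (-0.06), Zscan4d (0.19) and Zscan4f (0.28) were not called, though Zscan4d and Zscan4f were without either CTR library (adjusted p 0.0213 and 0.0222, and 6.5e-03 and 7.0e-03). These genes belong to near-identical families, so their reads cannot be assigned with certainty. Of 16 germline genes silenced by methylation 7 were higher, Stk31 (1.10) and Dazl (0.71) among them, and 4 lower, led by the meiotic gene Hormad1 (-1.04).

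Of 27 Polycomb subunits 9 were higher and 10 lower (median -0.05, and 0.05 after either other scaling). Kdm2b (0.81), Phc1 (0.73), Eed (0.73) and Jarid2 (0.47) were higher, and Cbx6 (-0.97), Yaf2 (-0.95) and Bmi1 (-0.70) lower. In the small RNA machinery 9 of 21 were lower and 4 higher, near the shares of all genes, and 5 and 5 after quantile normalization: Ago1 (-0.86), Tnrc6a (-0.69), Dicer1 (-0.47) and Ago2 (-0.33) were lower, and Tarbp2 (0.39) and Xpo5 (0.28) higher. Of 15 genes of Lin28 and let-7 control 4 were higher (Lin28a, Hmga1 at 0.55, Trim71 at 0.48 and Igf2bp1 at 0.40) and 5 lower (Igf2bp3 at -1.02, Arid3a at -0.99), with Lin28b (-0.09) not called. Of 20 caspase and BCL2 genes 10 were lower and 2, Hrk (1.05) and Bmf (0.84), higher. Of 19 genes of p53 and its targets 11 were lower and 2 higher. Cholesterol synthesis had 10 lower and 1 higher of 19, and 7 and 3 under both other scalings. HIF targets had 7 lower and 2 higher of 17, and 4 and 2 after median-of-ratios scaling or 4 and 3 after quantile normalization. FGF and Ras genes had 4 lower and 2 higher of 11, near the shares of all genes.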
